A study of Mus musculus with 17 samples.

Results

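NF-kB subunits and IkB proteins were followed through 10 rows of a count table of 47643 rows. The rows were chosen by gene name: the 5 genes of the NF-kB subunits (Nfkb1, Nfkb2, Rela, Relb and Rel) and 5 genes of IkB proteins (Nfkbia, Nfkbib, Nfkbie, Nfkbiz and Bcl3). The choice used no cutoff on these counts, though earlier results of these data were known. All 10 rows are in the table, and 9 passed the filter on low counts. The Nfkbia row did not, with 0 to 0.307 CPM (the count scaled to the size of its library).

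NF-kB subunits bind DNA as dimers. The classical IkB proteins, encoded by Nfkbia, Nfkbib and Nfkbie, hold these dimers in the cytoplasm until a kinase marks them for destruction, whereas Bcl3, IkB-zeta (Nfkbiz) and the product of Nfkbid act mainly in the nucleus on subunits that are already bound to DNA. In regulatory T cells (Tregs), signals through the T cell receptor and through receptors of the TNF family reach the genome by this route, and c-Rel and RelA are known to be needed for their development and upkeep.

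The cells were Foxp3-GFP+ Tregs sorted from spleen after an enrichment for CD4+ T cells. All mice were on the NOD background, which is prone to autoimmune diabetes, and all carried the Foxp3-GFP reporter. The 3 groups were 6 libraries of mice with an Nfkbid transgene (genotype NOD-60A Tg+), 5 libraries of mice without functional Nfkbid (NOD-Nfkbid-KO) and 6 libraries of NOD controls. Each transgenic library held 1 sample, while each knockout or control library was a pool of 2, so transgene status and pooling cannot be told apart. All 17 libraries have the same batch date. The promoter of the transgene and the age and sex of the mice are not given in the sources used here. The library names carry sample identifiers that differ between all libraries, and the labels do not say whether each identifier is 1 animal. A p-value therefore sets a group difference against the spread among these separate samples or pools. Single samples and pools share 1 estimate of the spread per row in the fit.

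Library totals were 3133388 to 4726615 counts, and 3 counts were worth 0.623 to 1.04 CPM. TMM factors, which correct for the makeup of a library, were 0.859 to 0.864 in transgenic replicate 1 and knockout replicates 2 and 5, and 0.951 to 1.092 in the other 14 libraries. The Nfkbid row averaged 8.79 ± 1.51 CPM in transgenic (SD, n = 6), 4.75 ± 2.41 CPM in knockout (SD, n = 5) and 4.57 ± 0.915 CPM in control libraries (SD, n = 6). All 6 transgenic libraries lay above all 6 control libraries, and the row was higher by 0.94 on the log2 scale (SE 0.28, adjusted p = 0.045). In knockout against control libraries it had 0.06 (SE 0.30, adjusted p = 0.91), so it does not check the knockout label. Whether this row counts Nfkbid transcripts was not tested, so it does not check the transgene either. Of the 6 Treg marker rows, Foxp3 averaged 318.4, 313.0 and 346.5 CPM in transgenic, knockout and control libraries, and Il2ra 142.3, 174.5 and 133.9 CPM, with no call. Izumo1r averaged 266.4, 139.8 and 178.1 CPM in the same order of groups and was called in all 3 comparisons, Ikzf2 averaged 213.2, 220.3 and 152.8 CPM and was called in 2, and Ctla4 averaged 103.0, 61.2 and 72.7 CPM and was called in 1, between transgenic and knockout libraries. Tnfrsf18 was at 0 in all but 1 group, where it averaged 0.0505 CPM. The summed Treg markers ran from 1000 to 1113 CPM in transgenic, 855 to 989 CPM in knockout and 843 to 922 CPM in control libraries. The 6 B cell marker rows reported summed to 21.4 to 70.6 CPM in transgenic, 24.7 to 73.8 CPM in knockout and 63.7 to 85.7 CPM in control libraries, most of it in the Cd79a row, with Cd79b at 0 throughout. The 8 myeloid rows summed to 46.1 to 65.6 CPM over the 17 libraries, with S100a8 and S100a9 at 0. The highest of these rows was Cd14, which averaged 43.6, 41.2 and 37.6 CPM in transgenic, knockout and control libraries. Csf1r followed, with an average of at least 11.48 CPM in each group. The 2 CD8 T cell rows summed to at most 17.9 CPM and the 4 NK cell rows to at most 14.4 CPM in any library. The 3 red cell rows summed to at most 0.866 CPM. Of the 5 T cell rows, Cd3e averaged at most 1.07 CPM and Trac at most 4.451 CPM in any group. Cd3d, Cd3g and Cd4 averaged at least 17.57 CPM in each group. The place of the Nfkbid row and of the marker rows along the chromosome was not examined. The limit on row names given below holds for all of them. A marker row at or near 0 therefore does not show that its gene or cell type is absent. The part of other cell types in the results below was not tested. In bulk RNA, fewer cells of a type and less RNA per cell cannot be told apart.

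A row of this table may not hold the reads of the gene it names. In an earlier analysis of these data, the counts of many rows corresponded to sequence farther along the chromosome than the gene. This was the more so the farther a row lay from the chromosome start. It was not tested again here over the whole table. The place of each member row was therefore examined. All rows within 2 Mb on each side were moved together by -20 to 90 kb in steps of 0.5 kb, and at each of the 221 distances the count per exon base, averaged over all libraries, was ranked against the fraction of the moved exons lying on protein-coding exons of GRCm38. The best of 221 distances can only equal or exceed the unmoved one. With no move, each protein-coding row overlaps itself in full, so the unmoved value mainly separates protein-coding from other rows.

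Only for the Rela row was the best distance 0 kb. As an unmoved protein-coding row overlaps itself in full, this does not show that its counts are those of Rela. Rela (ENSMUSG00000024927, GRCm38 chr19:5637483-5648130, plus strand) starts 5.6 Mb from the chromosome start, the least of the 10 members, and Spearman's rho across 222 rows was 0.41 with no move, the highest of all distances. The best distance was 12 kb for the Relb row (ENSMUSG00000002983, chr7:19606217-19629438, minus strand), with a rho of 0.62 against 0.24 unmoved across 212 rows. It was also 12 kb for the Bcl3 row (ENSMUSG00000053175, chr7:19808462-19822770, minus strand), with 0.64 against 0.25 across 209 rows. At those distances 13.3% of the exon bases of the Relb row still lay on Relb and none of the Bcl3 row on Bcl3. With 2 Mb on each side, 6 distances lay within 0.05 of the best rho for Bcl3 and only the best itself for Rela. When the scan with 1 Mb on each side is added, such distances ran from 3.5 to 58.5 kb for Bcl3 and from 0 to 14 kb for Rela. Over the latter, the share of the exon bases of the Rela row that lay on Rela ran from 0% to 100%.

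**Figure D1:**
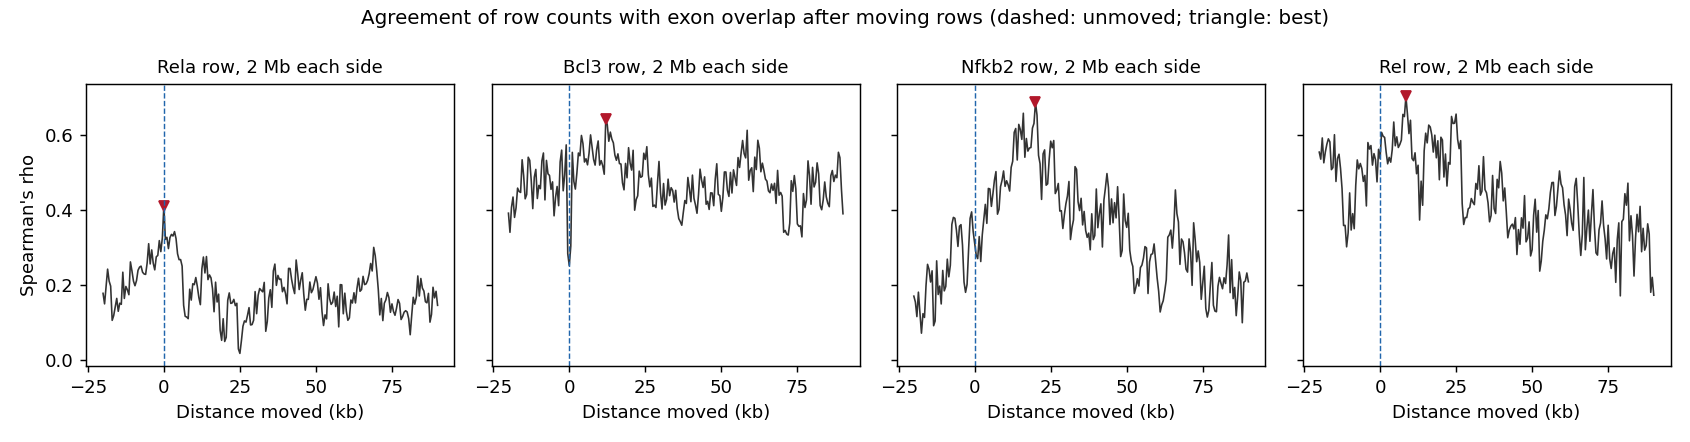
Spearman's rho (vertical axis) between the count per exon base and the overlap of the moved rows with protein-coding exons, by the distance moved in kb (horizontal axis), for the rows within 2 Mb of Rela, Bcl3, Nfkb2 and Rel. Dashed lines mark no move and triangles the best distance, which is 0 kb for Rela, 12 kb for Bcl3, 20 kb for Nfkb2 and 8.5 kb for Rel. The Rela curve has 1 distance within 0.05 of its best rho, and the Bcl3 curve has 6.

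For the other rows, too, the best distance was away from the gene. The best distance was 8.5 kb for Rel (chr11:23736847-23770970, minus strand), 9.5 or 11 kb for Nfkbib (chr7:28758251-28767512, minus strand) with 1 or 2 Mb on each side, and 20 kb for Nfkb2 (chr19:46304320-46312385, plus strand). It was 25 kb for Nfkbie (chr17:45555703-45563169, plus strand), 25 or 27 kb for Nfkbia (chr12:55489410-55492647, minus strand) and 34 kb for Nfkbiz (chr16:55811375-55838899, minus strand), which rested on 38 rows. For Nfkb1 (chr3:135584655-135691547, minus strand), which lies 135.6 Mb from the chromosome start, the best distance was 89 kb, next to the edge of the range searched. At these distances the share of exon bases still on the named gene was 6.15% for Rel, 3.52% for Nfkb1 and 0% for Nfkb2, Nfkbia, Nfkbib, Nfkbie and Nfkbiz. Several best distances were poorly determined. Distances within 0.05 of the best rho in either scan ran from 10.5 to 89.5 kb for Nfkb1 and -15 to 25 kb for Rel. They ran from -10.5 to 50.5 kb for Nfkbia, -4 to 79 kb for Nfkbiz and 4 to 58.5 kb for Relb. The ranges were narrower for Nfkb2, Nfkbib and Nfkbie. Over such distances the Nfkb1 share ran from 0.0746% to 28.2%. The moved Nfkb2 row had 1173 exon bases on Cuedc2 and the moved Nfkbie row 448 on Slc29a1, an equilibrative nucleoside transporter gene. The values below are therefore those of the rows that carry these names, Rela included. Whether they count the named gene's transcripts was not tested.

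Several genes of the family hold an NF-kB motif at their own start, which is the textbook route by which the pathway feeds back on itself. RefSeq promoter windows on GRCm38.p6, from 250 bases before to 50 after a gene's start, were found for 7 of the 10 members, in 9 windows. The kappaB consensus, searched by name on both strands, occurred in 7 of these 9 windows and in those of 5 members, namely Bcl3, Rel, Nfkbia, Nfkbie and Nfkb2, against 8.46% of all 32851 windows. The Rela and Nfkbib windows held no match, and Nfkb1, Relb and Nfkbiz were not among the windows found. The sites of Bcl3, the row that differed most between groups, and, for comparison, 1 site each of the subunits Rel and Nfkb2 and of the classical inhibitor Nfkbia are given 5′ to 3′ on the strand of the gene, with the letters that match the motif in capitals, overlapping matches joined:
Bcl3, chr7:19822734-19822763, minus strand: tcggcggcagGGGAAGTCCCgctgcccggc
Rel, chr11:23771041-23771070, minus strand: gtaagcagcGGGAAATCCCCccccctcccc
Nfkbia, chr12:55492657-55492686, minus strand: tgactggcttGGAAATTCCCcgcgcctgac
Nfkb2, chr19:46304689-46304718, plus strand: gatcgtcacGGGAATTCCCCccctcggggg
The 4 sites shown share the run of G at one end and of C at the other. Counted from the start that the RefSeq window is built on, the Bcl3 match begins 3 bases after it and those of Rel, Nfkbia and Nfkb2 lie before it; the Nfkb2 site is inside the longer span of the gene given above. A match describes these letters and shows no binding, and these are the promoters of the named genes, not of the sequence that a displaced row may count.

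Among the subunits, the Relb row was higher in transgenic than in control libraries, and the rows of Rela, Nfkb2, Rel and Nfkb1 did not pass the test in any of the 3 comparisons. Rela encodes p65, the subunit that carries the main activation domain of the classical pathway. Its row held 77.7, 72.4, 76.4, 66.3, 67.2 and 61.2 CPM in transgenic libraries, 70.0, 60.9, 65.3, 63.7 and 73.3 CPM in knockout libraries and 57.3, 66.1, 77.1, 74.8, 72.1 and 67.5 CPM in control libraries. The 3 groups overlapped over almost their whole range. Transgenic against control libraries had a log2 fold change of 0.02 (SE 0.10, adjusted p = 0.94), knockout against control libraries one of -0.05 (SE 0.10, adjusted p = 0.79) and transgenic against knockout libraries one of 0.07 (SE 0.10, adjusted p = 0.71). Here and below, adjusted p comes from the quasi-likelihood test of edgeR, corrected by Benjamini and Hochberg's method over 9986 rows, and the threshold is 0.05. The Rela standard errors were the smallest of the 9 tested members in each comparison.

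Relb encodes the subunit that pairs with p52 in the alternative pathway. Its row held 38.7, 40.8, 39.7, 36.4, 44.5 and 44.3 CPM in transgenic libraries, against 29.7, 29.5, 28.4, 35.2, 31.8 and 25.9 CPM in control libraries. Every transgenic library lay above every control library, though by a narrow margin, 36.4 CPM for the lowest transgenic and 35.2 CPM for the highest control library. The row rose by 0.44 on the log2 scale in transgenic against control libraries (SE 0.13, adjusted p = 0.035), a fold of 1.35. In knockout libraries it held 39.4, 35.5, 48.5, 29.9 and 33.7 CPM, which overlapped both other groups. Knockout against control libraries had a log2 fold change of 0.32 (SE 0.13, adjusted p = 0.17) and transgenic against knockout libraries one of 0.12 (SE 0.13, adjusted p = 0.61). The call ended in 12 of 28 alternatives, with a log2 fold change of 0.39 to 0.45 and an adjusted p of 0.055 to 0.14 in those 12. They were upper-quartile scaling, no filter on low counts, the replicate block, and the loss of any 1 of transgenic replicates 2, 3, 5 and 6 or control replicates 1, 2, 3, 5 and 6.

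The Rel and Nfkb1 rows were low in the same 3 libraries. Rel encodes c-Rel, the subunit tied most closely to Treg development. Its row held 15.6, 36.2, 44.3, 47.8, 56.2 and 50.2 CPM in transgenic libraries, 44.0, 18.6, 31.9, 41.7 and 16.4 CPM in knockout libraries and 33.0, 33.2, 44.9, 47.1, 54.2 and 30.3 CPM in control libraries. The low values, 15.6 to 18.6 CPM, belong to transgenic replicate 1 and knockout replicates 2 and 5, the libraries with the lowest TMM factors, and the other 14 libraries held 30.3 to 56.2 CPM. Nfkb1 encodes p105, the precursor of p50. Its row held 13.5, 18.9, 21.5, 22.3, 19.0 and 23.8 CPM in transgenic libraries, 38.9, 10.1, 20.8, 27.4 and 12.1 CPM in knockout libraries and 27.0, 23.1, 24.3, 33.5, 26.1 and 30.8 CPM in control libraries. The same 3 libraries held 10.1 to 13.5 CPM and the other 14 held 18.9 to 38.9 CPM. Neither row was called in any comparison; transgenic against control libraries had a log2 fold change of -0.47 for Nfkb1 (SE 0.24, adjusted p = 0.31), and knockout against control libraries one of -0.40 for Rel (SE 0.28, adjusted p = 0.40).

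Nfkb2 encodes p100, the precursor of p52. Its row averaged 14.0 ± 2.65 CPM in transgenic (SD, n = 6), 12.9 ± 1.95 CPM in knockout (SD, n = 5) and 13.8 ± 4.08 CPM in control libraries (SD, n = 6), and the groups overlapped. Its log2 fold change lay between -0.09 and 0.11 in the 3 comparisons, with standard errors of 0.20 to 0.21 and adjusted p-values of 0.80 to 0.97.

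**Figure D2:**
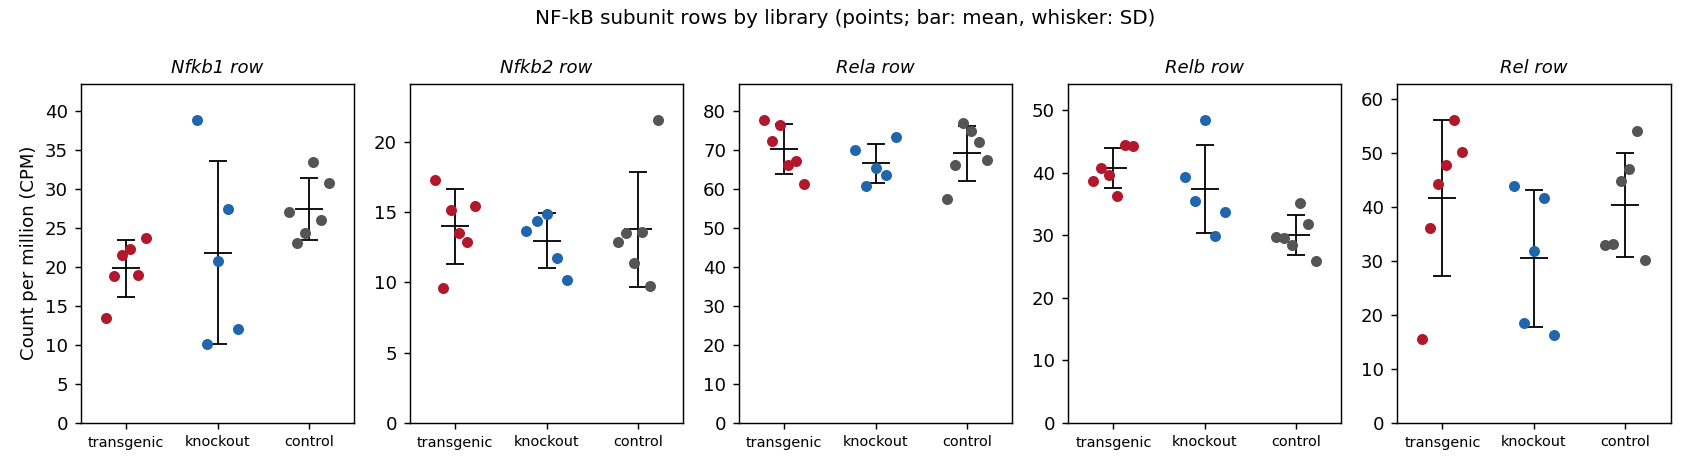
Scaled counts (vertical axis, CPM, from 0) of the 5 NF-kB subunit rows in transgenic, knockout and control libraries (horizontal axis), with 1 point per library, a bar at the mean and whiskers of 1 SD. The transgenic points of the Relb row, from 36.4 to 44.5 CPM, lie above all control points, and the low Rel and Nfkb1 points are those of transgenic replicate 1 and knockout replicates 2 and 5.

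Of the nuclear IkB proteins, the Bcl3 row differed most between the groups. Bcl3 binds dimers of p50 or p52 on DNA and can activate or repress there. Its row held 23.2, 30.9, 31.5, 34.9, 34.7 and 42.8 CPM in transgenic libraries, 8.31, 6.84, 12.5, 6.43 and 7.86 CPM in knockout libraries and 9.77, 13.2, 11.6, 13.3, 15.0 and 20.4 CPM in control libraries. All 6 transgenic libraries lay above all 11 others, and 4 of 5 knockout libraries lay below all 6 control libraries. The row rose by 1.25 on the log2 scale in transgenic against control libraries (SE 0.20, adjusted p = 0.00016), a fold of 2.39. Against knockout libraries it was higher by 1.97 in transgenic libraries (SE 0.22, adjusted p = 2e-06), a fold of 3.91. In knockout against control libraries the log2 fold change was -0.71 (SE 0.22, adjusted p = 0.084), which did not pass. Both transgenic calls held in all 28 alternatives, at 1.17 to 1.40 against control and 1.86 to 2.17 against knockout. Because the row moved by 12 kb lay on no Bcl3 exon, these differences are those of the row.

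Nfkbiz encodes IkB-zeta, an inducible nuclear IkB protein known as a co-activator at secondary response genes in other immune cells. Its row held 251.5, 163.3, 141.2, 156.9, 168.5 and 143.2 CPM in transgenic libraries, against 180.4, 344.0, 224.1, 190.6 and 324.8 CPM in knockout libraries. In control libraries it held 172.0, 190.9, 182.5, 163.4, 169.3 and 215.3 CPM. The 3 highest libraries were knockout replicates 2 and 5 and transgenic replicate 1, at 251.5 to 344.0 CPM, and the other 14 held 141.2 to 224.1 CPM. These are again the libraries with the lowest TMM factors, and the part of that factor in the difference was not tested. The row fell by 0.57 on the log2 scale in transgenic against knockout libraries (SE 0.17, adjusted p = 0.034), with overlapping groups. Without those 3 libraries together, an alternative chosen after seeing the data, it fell by 0.34 (adjusted p = 0.035). The call ended in 10 of 28 alternatives. Without knockout replicates 2, 3 and 5 together, in which the fewest rows had counts, the value was -0.11 (adjusted p = 0.76). Without knockout replicate 2 or 5 alone it was -0.43 or -0.46 (adjusted p = 0.12 for each). It also ended without any 1 of transgenic replicates 2 to 6, under the replicate block and with only the 2 groups in the fit, at -0.57 to -0.52 and an adjusted p of 0.068 to 0.10. Set against control, transgenic libraries had a log2 fold change of -0.09 (SE 0.16, adjusted p = 0.84) and knockout libraries one of 0.47 (SE 0.17, adjusted p = 0.12). The knockout value passed only without knockout replicate 1 (0.57) or 4 (0.55), with an adjusted p of 0.043 each.

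The rows of the classical inhibitors were not called in any comparison. Nfkbie encodes IkB-epsilon, and its row held 30.1, 18.6, 11.8, 15.0, 17.8 and 16.9 CPM in transgenic libraries, 15.3, 28.3, 12.3, 14.0 and 19.3 CPM in knockout libraries and 15.8, 17.2, 14.3, 10.4, 5.59 and 7.57 CPM in control libraries. Transgenic replicate 1 and knockout replicates 2 and 5 were the 3 highest here too, at 19.3 to 30.1 CPM against 5.59 to 18.6 CPM in the other 14. Against control, transgenic libraries had a log2 fold change of 0.62 (SE 0.28, adjusted p = 0.21) and knockout libraries one of 0.58 (SE 0.29, adjusted p = 0.24). Nfkbib encodes IkB-beta, and its row averaged 35.0 ± 2.80 CPM in transgenic (SD, n = 6), 34.0 ± 7.68 CPM in knockout (SD, n = 5) and 34.8 ± 5.83 CPM in control libraries (SD, n = 6). Its log2 fold change was between -0.03 and 0.04 in the 3 comparisons, with standard errors of 0.15. Nfkbia encodes IkB-alpha, the best known target and brake of the pathway, and its row had no count in 13 of 17 libraries and at most 0.307 CPM in the others. This is under the 0.623 to 1.04 CPM that 3 counts are worth, so no fold is given. The near absence of counts belongs to a row whose best distance from its gene was 25 or 27 kb, with no exon base left on Nfkbia.

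**Figure D3:**
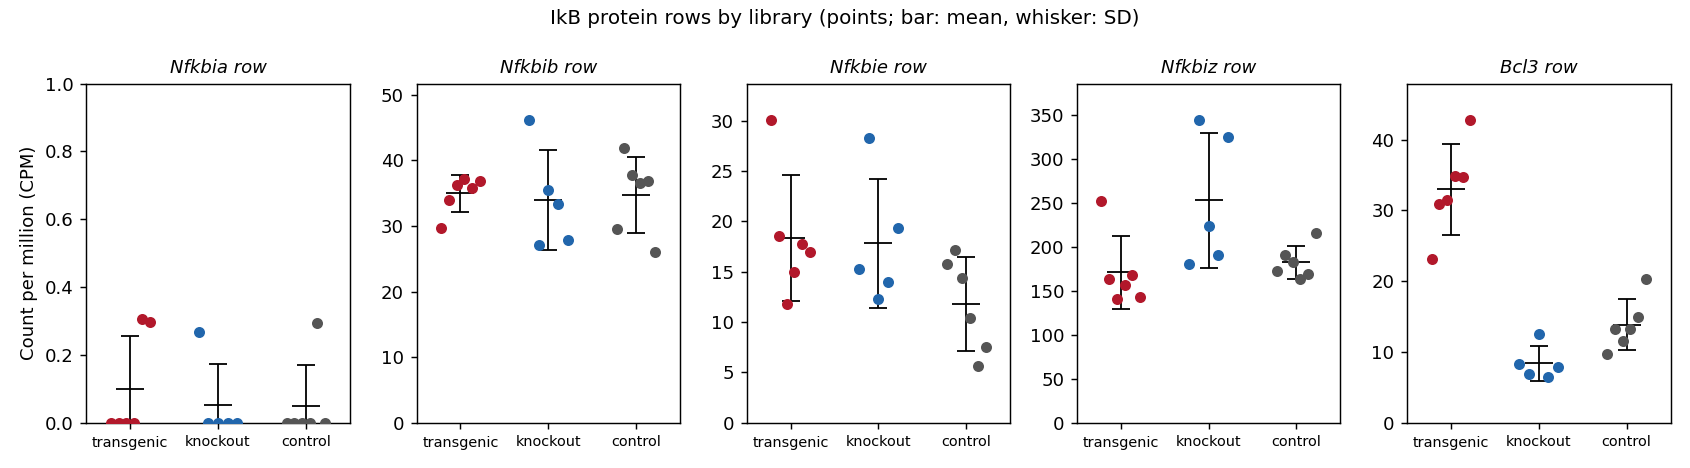
Scaled counts (vertical axis, CPM, from 0) of the 5 IkB protein rows in transgenic, knockout and control libraries (horizontal axis), with 1 point per library, a bar at the mean and whiskers of 1 SD. The transgenic points of the Bcl3 row, from 23.2 to 42.8 CPM, stand above all knockout and control points, and the high Nfkbiz points are 2 knockout libraries and 1 transgenic library.

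Per kb of annotated exon, the Nfkbiz row had the highest level of the 10, with 34.0 CPM per kb in transgenic, 50.4 in knockout and 36.3 in control libraries. The Rela row followed with 22.8, 21.7 and 22.5 CPM per kb in the same order of groups. The Bcl3 row had 13.3 CPM per kb in transgenic, 3.39 in knockout and 5.61 in control libraries, and the Relb row 10.5, 9.63 and 7.75 in that order. The lowest were Nfkb2 at 2.97, Nfkb1 at 1.92 and Nfkbia at 0.0426 CPM per kb as a mean of all libraries. The exon lengths are those of the named genes, and only the Rela row had its best distance at 0 kb. Whether any of these levels is that of the named gene was not tested.

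Counted over the members, 2 of the 9 tested rows were called in transgenic against control libraries, both higher, where 7.4% of all 9986 rows were called, 5.23% higher and 2.17% lower. Their median log2 fold change was 0.02, against -0.01 over all rows. In knockout against control libraries 0 of 9 were called by edgeR, where the share of all rows was 1.89%, with 0.881% higher and 1.01% lower. At an unadjusted p under 0.05, 3 of the 9 (Bcl3, Nfkbiz and Relb) would pass, as would 2238 of all 9986 rows. DESeq2 called 1 of them, Bcl3, at -0.71 (adjusted p = 0.045), and 605 of all rows, and the edgeR median was -0.05 against -0.02 over all rows. In transgenic against knockout libraries 2 of 9 were called, Bcl3 higher and Nfkbiz lower, where 10.7% of all rows were called, 6.34% higher and 4.33% lower, and the median was 0.07 against 0 over all rows. With so few members these counts show which rows moved and nothing about the family as a whole. The comparisons share groups: each group enters 2 of the 3.

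**Figure D4:**
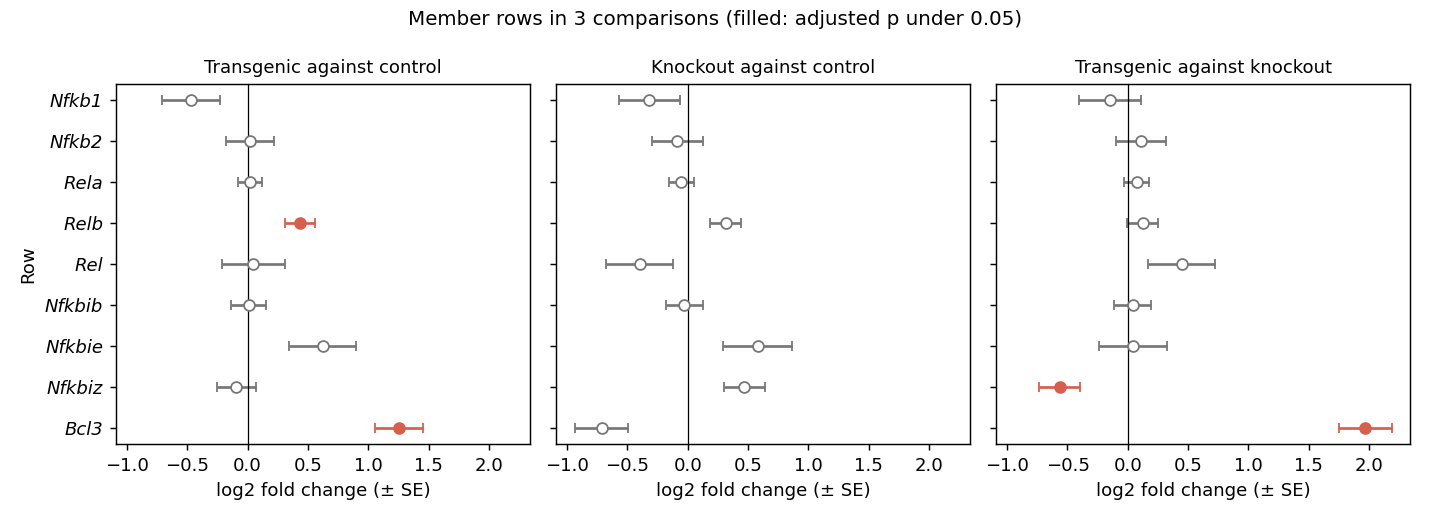
log2 fold change with its SE (horizontal axis) of the 9 tested member rows (vertical axis) in transgenic against control, knockout against control and transgenic against knockout libraries. Filled points have an adjusted p under 0.05, which are Bcl3 (1.25) and Relb (0.44) on the left, none in the middle, and Bcl3 (1.97) and Nfkbiz (-0.57) on the right.

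Rows that lie over member exons once moved were examined as well; they were chosen after their values were seen. Gbf1, a gene of vesicle traffic, moved by 20 kb, covered 1101 exon bases of Nfkb2, which is 24.0% of that gene's exons. Its row held 107.5 ± 7.85 CPM in transgenic (SD, n = 6), 83.7 ± 18.7 CPM in knockout (SD, n = 5) and 91.9 ± 9.80 CPM in control libraries (SD, n = 6). Pus10, a pseudouridine synthase gene, moved by 8.5 kb, covered 1656 exon bases of Rel, or 22.2%. Its row held 183.6 ± 26.6 CPM in transgenic (SD, n = 6), 175.0 ± 43.1 CPM in knockout (SD, n = 5) and 171.0 ± 20.8 CPM in control libraries (SD, n = 6). Cblc covered 348 exon bases of Bcl3 and had a mean count of 0.979 per library, too few to be tested. None of the tested rows over a member was called in any comparison by edgeR's adjusted p.

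Within 150 kb of the Bcl3 row 10 rows were tested. The nearest named row at lower coordinates, Tomm40, which encodes a channel of the outer mitochondrial membrane, averaged 9.97 CPM in transgenic, 11.6 CPM in knockout and 9.77 CPM in control libraries. Apoe and Apoc1, which encode apolipoproteins, lay farther on the same side, and the 3 rows had log2 fold changes of 0.04, 0.51 and -0.40 for transgenic against control, none called. On the other side Pvr, which encodes the poliovirus receptor CD155, fell by 0.55 in transgenic against control libraries (SE 0.17, adjusted p = 0.045), with 38.1 ± 8.62 CPM in transgenic and 55.8 ± 8.06 CPM in control libraries (SD, n = 6 each). Ceacam16 and Igsf23 were not called. Of the predicted rows, 1 was higher in transgenic against knockout libraries, 24.2 kb from the Bcl3 row. None of the 10 was called higher in transgenic against control libraries by edgeR's adjusted p, and that predicted row had 0.83 there (adjusted p = 0.29).

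**Figure D5:**
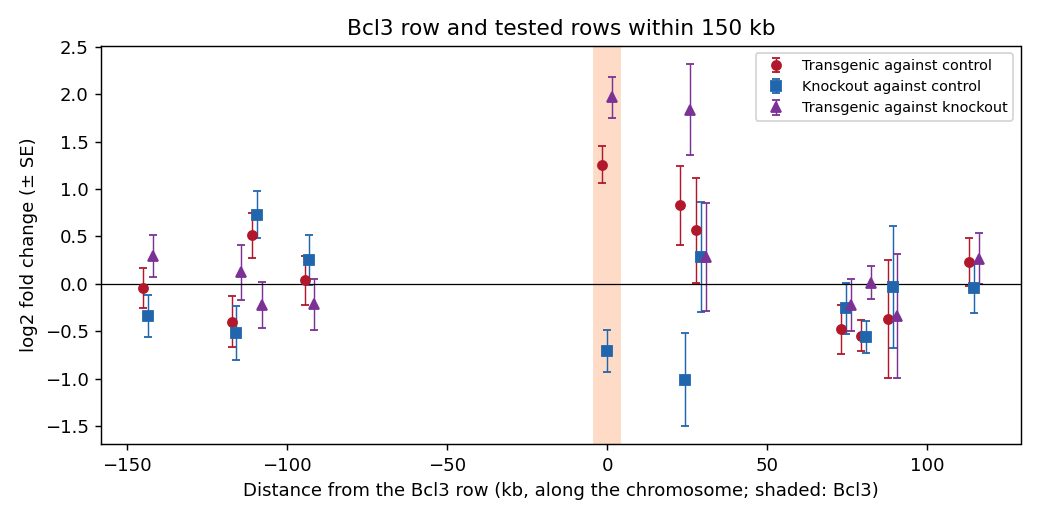
log2 fold change with its SE (vertical axis) of the Bcl3 row and the 10 tested rows within 150 kb, by distance from the Bcl3 row in kb (horizontal axis), for the 3 comparisons. The shaded Bcl3 row, at 1.25 for transgenic against control and 1.97 for transgenic against knockout, stands apart from most of its neighbours, whose nearest one at 24.2 kb has 0.83 and 1.84.

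Around the Relb row none of 12 tested rows was called in any comparison by edgeR's adjusted p. The predicted row that lay over Relb exons once moved, 3.9 kb from the Relb row, had log2 fold changes near those of Relb. It had 0.49 for transgenic against control (SE 0.15, adjusted p = 0.055), where Relb had 0.44. For knockout against control it had 0.44 (SE 0.16, adjusted p = 0.12), where Relb had 0.32. Around Nfkbiz 4 rows were tested. Among these 4, Zbtb11os1, an antisense transcript that may share reads with Zbtb11, fell by 1.19 in transgenic against knockout libraries (SE 0.37, adjusted p = 0.044). Nxpe3, 1.1 kb from the Nfkbiz row and the gene on which 170 of its moved exon bases lay, held 305.1 ± 19.1 CPM in transgenic (SD, n = 6), 317.0 ± 24.7 CPM in knockout (SD, n = 5) and 338.2 ± 21.5 CPM in control libraries (SD, n = 6). It was not called.

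The rows most like a called member over all 17 libraries were found by the root mean square difference of centred log2 CPM. A small value means that 2 rows differ little around their means. A row that does not vary would score the member's own SD, so each value has to be read against that SD. For Bcl3, whose own SD was 0.84, they were Endod1 (0.35), Smcr8 (0.37) and Bcl2l13 (0.38), on chromosomes 9, 11 and 6. Endod1 held 165.8 to 259.7 CPM in transgenic, 69.1 to 94.1 CPM in knockout and 112.8 to 151.3 CPM in control libraries, so the 3 groups did not overlap and kept the order of the Bcl3 means. For Nfkbiz, with an SD of 0.36, they were Rpl10 (0.099), Frmd8 (0.10) and Pum2 (0.10). Rpl10, a ribosomal protein gene whose reads can be split among near-identical copies, held 163.4 ± 37.2 CPM in transgenic (SD, n = 6), 241.2 ± 57.5 CPM in knockout (SD, n = 5) and 165.6 ± 14.6 CPM in control libraries (SD, n = 6). For Relb, with an SD of 0.25, they were Camk2d (0.14), Zfp324 (0.15) and Mdn1 (0.16). These rows were picked for likeness, which is a description with no test.

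The rest of the pathway was read from 86 further genes in 6 lists, of which 50 were tested. In transgenic against control libraries 6 of the 50, Nfkbid among them, were higher and 4 lower, set beside the 7.4% of all rows called. In knockout against control libraries 0 of 50 were called by edgeR, and in transgenic against knockout libraries 7 of 50 were higher and 3 lower, set beside 10.7%. The lists were drawn up with earlier results of these data known, so these counts are no independent evidence.

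Among ligands and receptors, Tnfsf8, which encodes the CD30 ligand, rose and Il1rl1 and Ltbr fell in transgenic against control libraries. Tnfsf8 had 96.0 ± 14.2 CPM in transgenic (SD, n = 6), 47.3 ± 5.39 CPM in knockout (SD, n = 5) and 66.0 ± 10.5 CPM in control libraries (SD, n = 6). It was higher in transgenic libraries by 0.54 against control (SE 0.12, adjusted p = 0.007) and by 1.02 against knockout (SE 0.13, adjusted p = 1.5e-05). Il1rl1, the IL-33 receptor ST2, had 160.5 ± 22.3 CPM in transgenic and 242.8 ± 42.9 CPM in control libraries (SD, n = 6 each) and fell by 0.60 (SE 0.12, adjusted p = 0.0017). Ltbr, the lymphotoxin beta receptor, had 1.55 ± 0.634 CPM in transgenic and 4.06 ± 1.13 CPM in control libraries (SD, n = 6 each), near the level of 3 counts, and fell by 1.38 (SE 0.36, adjusted p = 0.019). Of 16 receptor rows only 4 passed the filter, and 2 of 9 ligand rows did.

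Among 22 tested adaptors and kinases, Prkcq, the kinase PKC-theta that links the T cell receptor to NF-kB, fell by 0.47 in transgenic against control (SE 0.12, adjusted p = 0.015) and by 0.58 against knockout libraries (SE 0.12, adjusted p = 0.0035). Traf5, an adaptor of TNF receptors, fell by 0.70 in transgenic against knockout libraries (SE 0.17, adjusted p = 0.0099). Of 7 tested feedback inhibitors, Tnfaip3, the ubiquitin-editing enzyme A20, fell by 1.49 in transgenic against control libraries (SE 0.33, adjusted p = 0.0053). Its row averaged 210.5 CPM in transgenic, 293.2 CPM in knockout and 592.8 CPM in control libraries. The knockout libraries spread from 116.9 to 518.5 CPM, and the row was not called in either other comparison by edgeR's adjusted p. N4bp1, an inhibitor that binds ubiquitin, was higher by 1.46 in transgenic against knockout libraries (SE 0.25, adjusted p = 0.00052).

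Of the 14 tested NF-kB targets, which include the member rows Relb and Nfkb2, 5 were higher and none lower in transgenic against control libraries by edgeR's adjusted p, beside 5.23% and 2.17% of all rows. Against knockout 5 were again higher and none lower by that test, beside 6.34% and 4.33% of all rows. These counts depend on how the lists were drawn. Tnfaip3, which fell against control, was placed with the feedback inhibitors, and Nfkbia was not listed as a target. The counts therefore do not show that NF-kB targets moved in 1 direction. Cd83, Ccnd2 and Birc2 were called in both, Cflar and Relb only against control, and Irf4 and Ccr7, named after their values were seen, only against knockout. The difference between the comparisons was not tested. The Ccr7 row averaged 3.04 CPM in transgenic, 0.425 CPM in knockout and 2.78 CPM in control libraries. Its knockout mean is under the worth of 3 counts, and the transgenic and knockout libraries overlapped. Cd83, an activation molecule, had 62.3 ± 4.44 CPM in transgenic (SD, n = 6), 32.5 ± 10.4 CPM in knockout (SD, n = 5) and 26.2 ± 4.10 CPM in control libraries (SD, n = 6). It rose by 1.25 against control (SE 0.16, adjusted p = 1.3e-05) and by 0.94 against knockout (SE 0.17, adjusted p = 0.0006). Ccnd2, which encodes cyclin D2, rose by 1.16 against control (SE 0.18, adjusted p = 0.00022) and by 0.77 against knockout (SE 0.19, adjusted p = 0.012). Cflar, which encodes the caspase-8 inhibitor c-FLIP, rose by 0.35 against control (SE 0.096, adjusted p = 0.026). Birc2, an inhibitor of apoptosis, was higher by 0.53 in transgenic than in knockout libraries (SE 0.12, adjusted p = 0.0075). The list's median log2 fold change was 0.24 for transgenic against control, 0.08 for knockout against control and 0.23 for transgenic against knockout. The Ltbr and Ccnd2 rows start at 125.3 and 127.1 Mb on chromosome 6, Traf5 at 192.0 Mb on chromosome 1 and Birc2 at 7.8 Mb on chromosome 9. The place of the pathway rows was not examined, and the limit on names given for the members holds for them too.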

How the data were processed

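Per the labels' protocols, polyA RNA of sorted cells was made into libraries with the KAPA mRNA HyperPrep kit and read with 67 bp reads and a 9 bp molecular identifier, at about 27 M reads a library. Per the submitters' processing notes, Bowtie2, GRCm38 and edgeR were used; the labels' protocols name Ensembl 102. The authors deposited expected counts per gene. Removal of duplicates by these identifiers is not described in the labels, and the CPM worth of 3 counts covers counting error only. Of 47643 rows, 47224 had a symbol in GENCODE, and 5.87% of values were not whole. All 17 libraries mapped to a group.

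Expected counts were rounded. The main test was the quasi-likelihood F test of edgeR 4.0.16 (R 4.3.3): TMM scaling, filterByExpr, group as the only term, all libraries fitted together, Benjamini-Hochberg adjustment over 9986 rows, threshold 0.05. The common biological coefficient of variation was 0.241. CPM are deposited counts divided by the TMM-scaled total of the tested rows. The fit and the scan of row positions were tested on simulated data. Alternatives were other scalings and filters, DESeq2 1.42.0, limma 3.58.1 with voom, 2-group fits, a replicate block, counts left unrounded, and fits with libraries left out.

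The members and lists were chosen with earlier results of these data known. Named were all members, Nfkbid, up to 3 called rows per list and comparison, tested rows within 150 kb of called members (3 a side) and the 3 most alike rows. Predicted genes were counted only, and 1 marker row is not reported here. Shifts, landing genes and rows over members were examined after counts had been seen.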

Additional observations from a re-analysis of the deposited data

Results flagged for a closer look

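The values of each of the 9 tested members were examined in each of the 3 groups, 27 sets of libraries in all, for a library far from the others of its group, and 3 stood out; chance alone gives about 1 in 20. The Nfkbiz row held 251.5 CPM in transgenic replicate 1, against 141.2 to 168.5 CPM in the other 5 transgenic libraries. The Nfkbie row held 30.1 CPM in the same library, against 11.8 to 18.6 CPM in the others. Transgenic replicate 1 had a TMM factor of 0.864, the lowest of its group, and its Rel and Nfkb1 rows were the lowest of the transgenic group, at 15.6 and 13.5 CPM. The Nfkb2 row held 21.5 CPM in control replicate 6, against 9.72 to 13.6 CPM in the other control libraries.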

How the results depend on the processing

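In all, 28 alternatives were run on each of 27 results (9 member rows in 3 comparisons), 756 values, of which 686 kept their direction and their side of the threshold, 22 lost and 5 gained a call, and 43 changed sign. The sign changes are all in values that were not called. Setting aside transgenic replicate 1 and knockout replicates 2 and 5 together was chosen after seeing the data. The cause of the changes was not tested.

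Over all rows, 739, 189 and 1065 were called in transgenic against control, knockout against control and transgenic against knockout libraries. For transgenic against control the count was 1226 with 2 groups only, 1348 without knockout replicates 2, 3 and 5, and 1281 without transgenic replicate 1 and knockout replicates 2 and 5. For knockout against control it was 571 with no filter, 67 with the replicate block, 76 with 2 groups only, 43 without knockout replicates 2, 3 and 5 and 605 with DESeq2. For transgenic against knockout it was 670 with the block and 632 with 2 groups only. Leaving out 1 library gave 529 to 876, 88 to 1124 and 735 to 1641. Upper-quartile scaling changed the split of transgenic against control calls to 440 higher and 302 lower (TMM: 522 and 217) and of transgenic against knockout calls to 579 and 610 (TMM: 633 and 432). Members called for transgenic against control were 1 (in place of 2) under upper-quartile scaling, no filter and the block. With 2 groups only they were 3, of which 2 were higher and 1, Nfkb1, lower. For knockout against control 1 (in place of 0) was called with DESeq2. For transgenic against knockout 1 (in place of 2) was called with the block and with 2 groups only. Leaving out 1 library gave 1 to 2, 0 to 1 and 1 to 2.

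Signs changed as follows, on the log2 scale. In transgenic against control libraries, upper-quartile scaling gave -0.021 for Nfkb2, -0.022 for Rela and -0.032 for Nfkbib, limma gave -0.001 for Rel, and omitting transgenic replicate 1 with knockout replicates 2 and 5 gave -0.034 for Nfkb2. In knockout against control, omitting knockout replicates 2, 3 and 5 gave 0.271 for Nfkb1, 0.086 for Rel and 0.196 for Nfkbib, omitting transgenic replicate 1 with knockout replicates 2 and 5 gave 0.077 for Nfkb1 and 0.136 for Nfkbib, and the block gave 0.025 for Nfkb2. In transgenic against knockout, omitting knockout replicates 2, 3 and 5 gave -0.022 for Rel and -0.172 for Nfkbib, upper-quartile scaling -0.002 for Nfkbib and -0.001 for Nfkbie, and omitting transgenic replicate 1 with knockout replicates 2 and 5 -0.072 for Nfkbib. Leaving out 1 library gave, for transgenic against control, -0.058 to 0.192 for Nfkb2, -0.022 to 0.06 for Rela, -0.052 to 0.218 for Rel and -0.059 to 0.073 for Nfkbib; for knockout against control, -0.166 to 0.084 for Nfkb2 and -0.168 to 0.041 for Nfkbib; and for transgenic against knockout, -0.326 to 0.166 for Nfkb1, -0.028 to 0.181 for Nfkbib and -0.149 to 0.271 for Nfkbie. The Nfkb1 row was called in transgenic against control with 2 groups only (-0.46, adjusted p = 0.044) and in transgenic against knockout without knockout replicates 2, 3 and 5 (-0.73, adjusted p = 0.031).

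Of 16 pairs of libraries with the same replicate number in the titles, 1 correlated above 0.1 (range -0.517 to 0.364). Pairs with different numbers ran from -0.528 (transgenic 1 and knockout 4) to 0.477 (transgenic 1 and knockout 2). With so wide a spread among these, the correlations cannot settle whether the numbers pair the libraries. With the replicate block the Relb value was 0.44 (adjusted p = 0.094) for transgenic against control and the Nfkbiz value -0.55 (adjusted p = 0.086) for transgenic against knockout. Without the block these values were 0.44 and -0.57, and why the calls ended was not tested. The Nfkbia row held 4 counts over all 17 libraries, too few for a statement on it, and the reason for this was not tested.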
